A study of Oryza sativa with 9 samples.

Results

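This account describes 8 rice genes of chlorophyll turnover, picked out by locus number as 6 genes of chlorophyll breakdown and 2 greening factors. The breakdown genes are NYC1 (LOC_Os01g12710), NOL (LOC_Os03g45194), SGR (LOC_Os09g36200), NYC3 (LOC_Os06g24730), PAO (LOC_Os03g05310) and RCCR1 (LOC_Os10g25030), and the greening factors are GLK1 (LOC_Os06g24070) and GLK2 (LOC_Os01g13740). All 8 were present among the 34119 genes of the expression table. Polyadenylated RNA was sequenced in 14-day-old rice seedlings after 3 h in 20% PEG8000, a polyethylene glycol solution that dehydrates the plant. The tested genotype was 1 line overexpressing the SET-domain protein SDG708 as a fusion to yellow fluorescent protein (SDG708-YFP-1, called 708OE_PEG here), with 3 libraries. It was set against the wild type NIP (NIP_PEG), also with 3 libraries, each of them sequenced on 2 lanes. Every plant was treated, so the comparison sets the genotypes against each other under PEG and cannot show how either one responded to it. The sources used here do not name the promoter that drives the fusion, and other lines were not analysed here.

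Leaves dismantle chlorophyll along a short plastid pathway when they senesce or are stressed. Chlorophyll b is first reduced towards chlorophyll a, magnesium is then removed to give pheophytin, the phytol tail is cut off, the ring is opened, and the red product is reduced to a colourless, less phototoxic one. Rice mutants in several of these genes keep green leaves during senescence, which gave NYC1 and NYC3 (non-yellow coloring) and SGR (stay-green) their names. GLK factors act at the other end of leaf life, as transcription factors that promote light-harvesting and chlorophyll synthesis genes while chloroplasts develop.

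Under PEG, 5 of the 6 breakdown genes fell in 708OE_PEG seedlings against NIP_PEG seedlings, and of the GLK factors GLK1 rose. The falls were deepest for NYC1, NYC3 and SGR, whose mean levels in 708OE_PEG were 0.546, 0.634 and 0.666 times those in NIP_PEG. GLK1 was at 1.32 times its wild-type level. RCCR1 and GLK2 did not pass the test. Levels are in FPKM (fragments per kilobase of gene and per M reads of the library), and the test was limma on log2(FPKM + 1), two-sided, with p-values adjusted by Benjamini-Hochberg (BH) over 18569 genes and a threshold of 0.05. Differences between the genotypes were common in these libraries: 34.3% of all tested genes were called, 14.3% as higher and 20.0% as lower in 708OE_PEG. The genotypes did not overlap for 50.6% of all tested genes, with 708OE_PEG above in 20.0% and below in 30.7%. They did not overlap for 5 of the 6 breakdown genes, all with 708OE_PEG below, nor for GLK1. The breakdown genes had a median log2 fold change of -0.48, against -0.04 for all tested genes.

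The library sizes implied by the FPKM steps were 13.3 to 18.1 M reads in 708OE_PEG and 17.4 to 24.9 M reads in NIP_PEG. The tabulated reads summed to 0.972 to 0.998 times these sizes in 708OE_PEG and to 1.05 to 1.07 times in NIP_PEG. Each member was supported by between 695 reads (NOL) and 31785 reads (NYC1) per library, with 3 libraries per genotype. The part that counting error plays in the spread among libraries was not tested, and NOL had the fewest reads. LOC_Os04g34980, the locus taken to be SDG708, was not among the genes used here. The locus numbered just below it, LOC_Os04g34976, averaged 149.9 ± 3.70 FPKM in 708OE_PEG and 5.15 ± 0.665 FPKM in NIP_PEG (SD, n = 3 each). Pairs of 708OE_PEG libraries had an SD of log2 differences over all tested genes of 0.175 to 0.177, and pairs of NIP_PEG libraries 0.188 to 0.292. The total of 6360 genes called was 3739, 3782 and 3378 without 708OE_PEG replicate 1, 2 or 3 and 4039 without NIP_PEG replicate 3. When library sizes were set to the tabulated reads, 63.9% of called genes were higher in 708OE_PEG, against 41.7% with the deposited scaling. Separate cultures per replicate are not stated in the labels, and the p-values reflect the spread among these libraries alone, which may be technical. Since only wild-type samples carry a lane label, lane and genotype cannot be told apart.

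**Figure D1:**
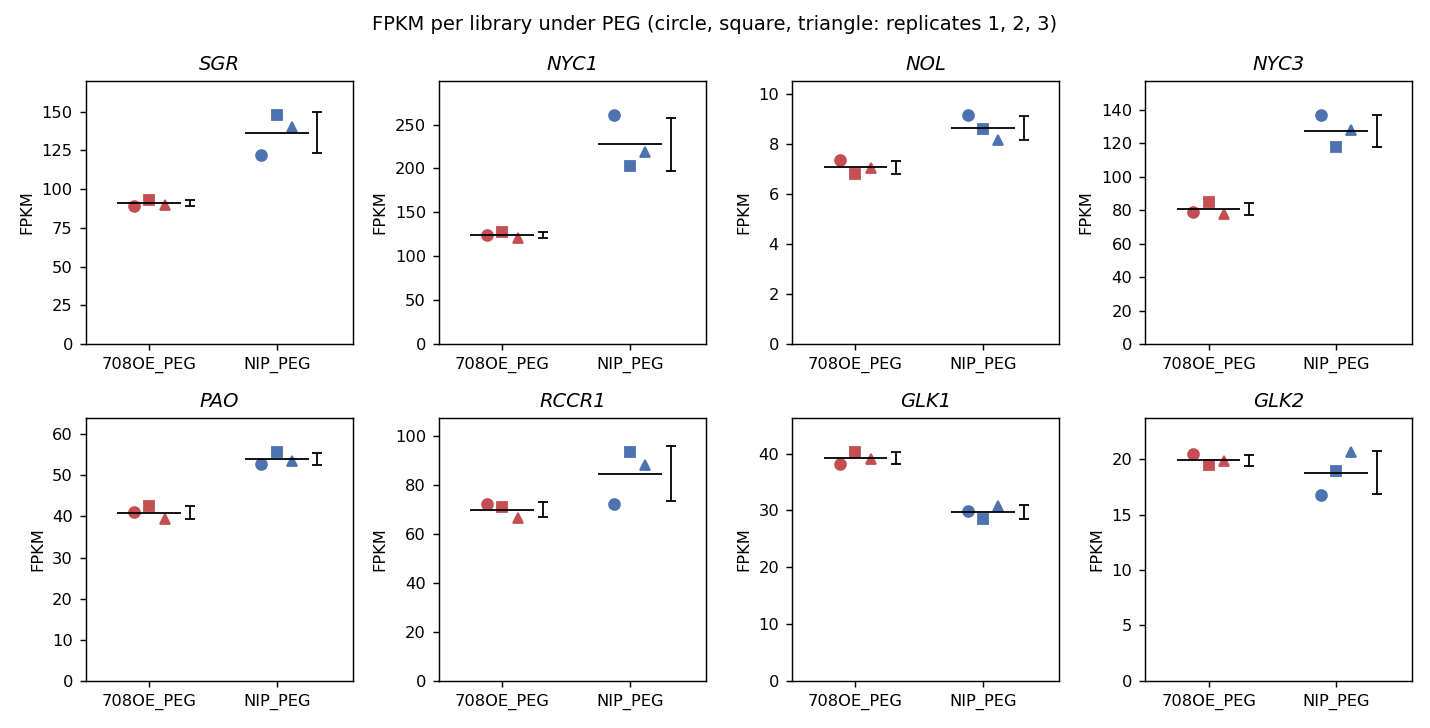
FPKM of each of the 8 genes in every library (vertical axes start at 0), with 708OE_PEG at the left and NIP_PEG at the right of each panel. Horizontal lines are means and error bars are 1 SD (n = 3). The genotypes are fully separated for SGR, NYC1, NOL, NYC3 and PAO, with 708OE_PEG lower, and for GLK1, with 708OE_PEG higher, while RCCR1 and GLK2 overlap.

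Chlorophyll b reductases open the pathway. NYC1 encodes a membrane reductase that starts the conversion of chlorophyll b to chlorophyll a, and NOL (NYC1-like) encodes its close relative, which forms a complex with it in rice. NYC1 (LOC_Os01g12710) was at 124.3, 127.2 and 121.1 FPKM in 708OE_PEG and at 260.4, 202.3 and 219.2 FPKM in NIP_PEG. The highest 708OE_PEG library lay well below the lowest NIP_PEG library. The log2 fold change was -0.86 (SE 0.10, 95% interval -1.08 to -0.64, BH-adjusted p = 0.00054), the steepest fall among the members. NOL (LOC_Os03g45194) was expressed at a far lower level, with 7.35, 6.80 and 7.05 FPKM in 708OE_PEG and 9.15, 8.59 and 8.18 FPKM in NIP_PEG. Its groups did not overlap either, but the distance between them was small. The log2 fold change of NOL was -0.26 (SE 0.07, 95% interval -0.42 to -0.10, BH-adjusted p = 0.023). That call was lost without 708OE_PEG replicate 1 (adjusted p = 0.0542), 2 (0.0896) or 3 (0.078). It was lost as well when library sizes were set to the tabulated reads (-0.16, adjusted p = 0.111) and after correction for the trend of fold changes on gene length (-0.12, adjusted p = 0.216).

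Because both reductases act at the same step, the ratio of NYC1 to NOL within each library was also compared. This ratio of FPKM values was 16.9, 18.7 and 17.2 in 708OE_PEG and 28.5, 23.5 and 26.8 in NIP_PEG. The groups were again separate, with NYC1 less dominant over NOL in every 708OE_PEG library. On the log2(FPKM + 1) scale the ratio differed by -0.60 between 708OE_PEG and NIP_PEG (exact two-sided permutation test p = 0.1, the smallest that 3 libraries against 3 allow, 0.2 adjusted over 4 ratios). This test cannot reach 0.05 with 3 libraries against 3.

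SGR and NYC3 act next. SGR encodes the stay-green protein, a magnesium dechelatase that turns chlorophyll a into pheophytin a, and NYC3 encodes the rice counterpart of pheophytinase, which removes the phytol tail. SGR (LOC_Os09g36200) was at 89.4, 93.0 and 90.0 FPKM in 708OE_PEG and at 121.9, 147.6 and 139.8 FPKM in NIP_PEG. The 708OE_PEG libraries were tightly grouped and all below the wild type (log2 fold change -0.58, SE 0.08, 95% interval -0.76 to -0.39, BH-adjusted p = 0.0016). NYC3 (LOC_Os06g24730) was at 79.1, 85.1 and 77.8 FPKM in 708OE_PEG and at 136.6, 117.4 and 127.7 FPKM in NIP_PEG. It too was lower in all 3 libraries (log2 fold change -0.65, SE 0.08, 95% interval -0.82 to -0.48, BH-adjusted p = 0.00069). The ratio of SGR to NYC3 averaged 1.13 ± 0.0315 in 708OE_PEG and 1.08 ± 0.182 in NIP_PEG (SD, n = 3 each), with overlapping libraries and an exact two-sided permutation p = 0.8. The sign of that difference, 0.07 on the log2(FPKM + 1) scale, turned to -0.06 without NIP_PEG replicate 1.

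PAO and RCCR1 encode the enzymes that open and detoxify the ring. PAO, pheophorbide a oxygenase, makes the red chlorophyll catabolite, and RCCR reduces that product, whose accumulation in the light injures plant cells. PAO (LOC_Os03g05310) was at 41.0, 42.5 and 39.3 FPKM in 708OE_PEG and at 52.8, 55.6 and 53.4 FPKM in NIP_PEG. Its groups were separate and narrow (log2 fold change -0.39, SE 0.06, 95% interval -0.53 to -0.25, BH-adjusted p = 0.0026). RCCR1 (LOC_Os10g25030) was at 72.3, 70.9 and 66.5 FPKM in 708OE_PEG and at 72.2, 93.4 and 88.3 FPKM in NIP_PEG. Its groups overlapped, because NIP_PEG replicate 1 was at the level of the 708OE_PEG libraries while the other NIP_PEG libraries were above all of them. The log2 fold change of -0.26 (SE 0.10, 95% interval -0.49 to -0.04) had a BH-adjusted p = 0.07. Without NIP_PEG replicate 1 it was -0.37, with an adjusted p = 0.00221. The ratio of PAO to RCCR1 averaged 0.585 ± 0.0172 in 708OE_PEG and 0.644 ± 0.0759 in NIP_PEG (SD, n = 3 each; exact two-sided permutation p = 0.2). NIP_PEG replicate 1 had a ratio of 0.732, against 0.596 and 0.605 in the other wild-type libraries, and without it the difference on the log2(FPKM + 1) scale was -0.03, against -0.13 with all libraries.

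**Figure D2:**
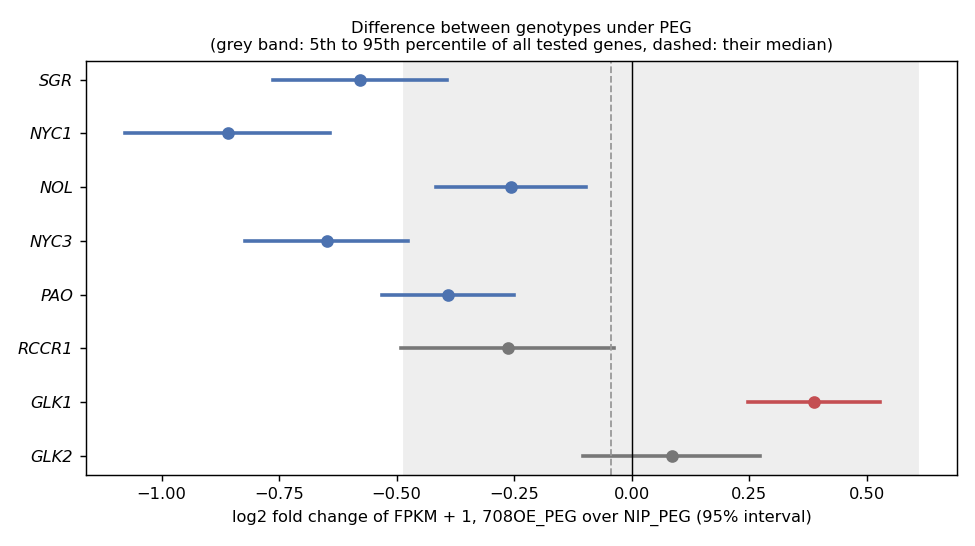
Log2 fold change of FPKM + 1 for 708OE_PEG over NIP_PEG (horizontal axis) for the 8 genes, with 95% intervals from limma. Blue marks genes called lower, red genes called higher and grey genes that did not pass. NYC1, NYC3 and SGR lie below the 5th percentile of all tested genes (-0.49), and GLK1, at 0.39, lies below the 95th percentile (0.61).

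Of the greening factors, GLK1 alone passed. GLK1 (LOC_Os06g24070) was at 38.2, 40.3 and 39.0 FPKM in 708OE_PEG and at 30.0, 28.5 and 30.7 FPKM in NIP_PEG. Every 708OE_PEG library was above every wild-type library (log2 fold change 0.39, SE 0.06, 95% interval 0.25 to 0.53, BH-adjusted p = 0.0027). GLK2 (LOC_Os01g13740) was at 20.5, 19.5 and 19.8 FPKM in 708OE_PEG and at 16.7, 18.9 and 20.6 FPKM in NIP_PEG. The 708OE_PEG values fell inside the wild-type range (log2 fold change 0.09, SE 0.08, BH-adjusted p = 0.45), and the 95% interval of -0.10 to 0.27 includes changes of either sign. The ratio of GLK1 to GLK2 was 1.87, 2.07 and 1.97 in 708OE_PEG and 1.79, 1.5 and 1.49 in NIP_PEG. It was higher in each 708OE_PEG library, with a difference of 0.30 on the log2(FPKM + 1) scale (exact two-sided permutation p = 0.1, 0.2 adjusted over 4 ratios).

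Levels can be compared between these genes per kilobase of gene, where the length is the span of the locus with introns rather than that of the mature transcript. In NIP_PEG the order by mean FPKM was NYC1, SGR, NYC3, RCCR1, PAO, GLK1, GLK2 and NOL, and neighbours overlapped only for SGR and NYC3. The order was the same in 708OE_PEG, where neighbours overlapped only for PAO and GLK1. NYC1 stood at the 97.5th percentile of tested genes in 708OE_PEG and at the 98.7th in NIP_PEG, and NOL at the 57.5th and the 62.4th. Summed over the breakdown genes, the level was 401.8 to 425.6 FPKM in 708OE_PEG and 625.0 to 653.0 FPKM in NIP_PEG. NYC1 made up 30.0 ± 0.12% of that sum in 708OE_PEG and 35.6 ± 3.88% in NIP_PEG, while RCCR1 made up 16.9 ± 0.512% in 708OE_PEG and 13.3 ± 2.01% in NIP_PEG (SD, n = 3 each). In bulk tissue, fewer cells of a type and less RNA per cell cannot be told apart.

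Wild-type libraries varied more than 708OE_PEG libraries for most members, as they did over all tested genes. There the SD of log2 differences was 0.188 to 0.292 between NIP_PEG libraries and 0.175 to 0.177 between 708OE_PEG libraries. The highest library exceeded the lowest by a larger factor in NIP_PEG than in 708OE_PEG for 7 of the 8 genes, all but PAO. NIP_PEG replicate 1 was the highest or the lowest wild-type library for 7 of 8, being highest for NYC1, NOL and NYC3 and lowest for SGR, PAO, RCCR1 and GLK2. Over all tested genes, too, NIP_PEG pairs with replicate 1 had the larger SDs, 0.292 and 0.232, against 0.188 for replicates 2 and 3. The shares of all tested genes with these patterns were not computed, so neither count can be read as particular to the members. The coefficient of variation for NYC1 was 2.49% in 708OE_PEG and 13.1% in NIP_PEG. For RCCR1 it was 4.32% in 708OE_PEG and 13.1% in NIP_PEG.

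Of 4 other genes of chlorophyll breakdown, 1 rose and 3 did not pass, where 14.3% of all tested genes rose. Their median log2 fold change was 0.20. The riser was a chlorophyllase gene, LOC_Os10g28370, for an enzyme that can also split phytol from chlorophyll but in Arabidopsis is dispensable for leaf senescence. It was at 21.4, 22.9 and 21.5 FPKM in 708OE_PEG and at 5.13, 6.80 and 6.28 FPKM in NIP_PEG, a wide gap between the groups (log2 fold change 1.70, SE 0.09, BH-adjusted p = 1.5e-05). SGRL, a homologue of SGR, averaged 22.8 ± 0.924 FPKM in 708OE_PEG and 18.3 ± 3.50 FPKM in NIP_PEG (SD, n = 3 each; log2 fold change 0.31, BH-adjusted p = 0.07). As with RCCR1, NIP_PEG replicate 1 (22.4 FPKM) was at the 708OE_PEG level, and without it the adjusted p was 0.000822. HCAR, which completes the conversion of chlorophyll b to chlorophyll a, had a log2 fold change of 0.09 (BH-adjusted p = 0.28). NYC4/THF1, a thylakoid protein whose rice mutant stays green, had a log2 fold change of -0.17 (BH-adjusted p = 0.084) and passed without NIP_PEG replicate 2 (log2 fold change -0.22, adjusted p = 0.0375).

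Among 13 tested regulators of senescence, light signalling and greening, 4 rose, 4 fell and 5 did not pass, with a median log2 fold change of -0.10. Of all tested genes, 14.3% rose and 20.0% fell. OsNAP, a NAC transcription factor reported in rice to activate breakdown genes during leaf senescence, was at 44.9, 44.0 and 41.5 FPKM in 708OE_PEG and at 87.8, 79.0 and 85.9 FPKM in NIP_PEG. All 708OE_PEG libraries lay far below the wild type (log2 fold change -0.94, SE 0.07, BH-adjusted p = 6.5e-05). OsABI5/bZIP10, a bZIP factor of abscisic acid signalling whose Arabidopsis relative activates SGR and NYC1 genes, averaged 4.40 ± 0.202 FPKM in 708OE_PEG and 10.8 ± 0.680 FPKM in NIP_PEG (SD, n = 3 each; log2 fold change -1.13, BH-adjusted p = 3.2e-05). The phytochrome-interacting factor-like genes OsPIL13 and OsPIL16 rose, with log2 fold changes of 0.44 (BH-adjusted p = 0.016) and 0.35 (0.011). The call of OsPIL13 was lost without NIP_PEG replicate 3 (adjusted p = 0.0517) and that of OsPIL16 without 708OE_PEG replicate 3 (0.0511). The count of regulators that rose was 2 without the one and also 2 without the other of these libraries. CGA1, a GATA factor that promotes chloroplast development in rice, rose too, by 0.33 on the log2 scale (BH-adjusted p = 0.0094). The remaining called regulators had changes of like size. ONAC106 rose (log2 fold change 0.33, BH-adjusted p = 0.025). The gene listed as OsEIL1 (-0.31, 0.016) and the photoreceptor gene PHYB (-0.30, 0.012) fell. Each of these calls was lost under some alternatives.

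Both tested senescence markers fell, where 20.0% of all tested genes fell. Osh36 averaged 82.4 ± 4.37 FPKM in 708OE_PEG and 143.9 ± 4.63 FPKM in NIP_PEG (SD, n = 3 each; log2 fold change -0.80, BH-adjusted p = 0.00015). Osl85 averaged 221.2 ± 10.9 FPKM in 708OE_PEG and 432.9 ± 42.4 FPKM in NIP_PEG (SD, n = 3 each; log2 fold change -0.96, BH-adjusted p = 0.00022). The third marker, OsSAG12-1, a cysteine protease gene, was listed at 0 in all 6 libraries.

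**Figure D3:**
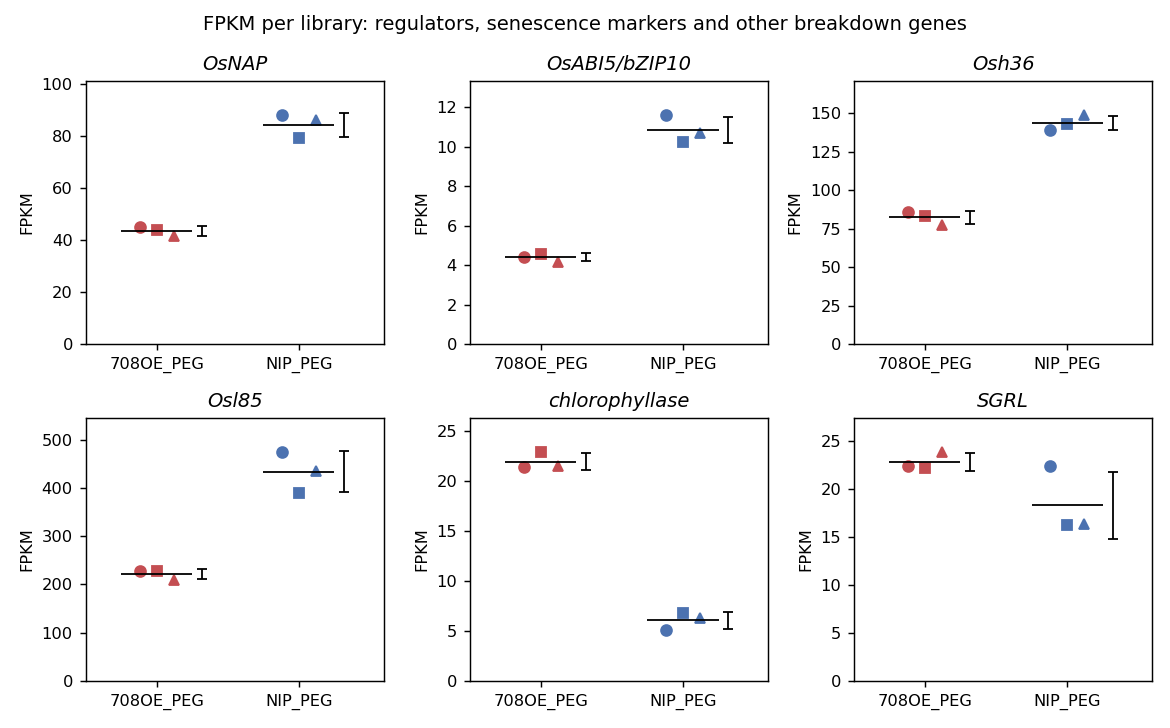
FPKM per library, with vertical axes from 0, for the regulators OsNAP and OsABI5/bZIP10, the senescence markers Osh36 and Osl85, the chlorophyllase gene and SGRL. Circles, squares and triangles are replicates 1, 2 and 3, lines are means and error bars 1 SD (n = 3). The first 4 genes are lower in every 708OE_PEG library and chlorophyllase is higher in every one, whereas NIP_PEG replicate 1 of SGRL sits among the 708OE_PEG values.

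Most tested genes on the synthesis side were higher in 708OE_PEG, as GLK1 was. Some are homologues of known GLK targets in Arabidopsis, but a link between their rise and GLK1 was not tested. Of 15 tested chlorophyll synthesis genes 12 rose, none fell and 3 did not pass (median log2 fold change 0.51), where 14.3% of all genes rose. The largest rises were those of the protochlorophyllide oxidoreductases PORA, at 34.1 ± 3.73 FPKM in 708OE_PEG and 14.7 ± 0.953 FPKM in NIP_PEG, and PORB, at 39.9 ± 3.44 FPKM in 708OE_PEG and 18.3 ± 0.873 FPKM in NIP_PEG (SD, n = 3 each; BH-adjusted p = 9.7e-05 and 6.4e-05). CHLM, the magnesium protoporphyrin methyltransferase gene, and CHLP, the geranylgeranyl reductase gene that supplies the phytol tail, had log2 fold changes of 0.91 (BH-adjusted p = 0.00024) and 0.84 (0.00015). A further synthesis gene, CAO2, was below the level needed for testing.

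Of 14 light-harvesting genes 13 rose, none fell and 1, Lhca5, did not pass (median log2 fold change 0.85), where 14.3% of all tested genes rose. The largest log2 fold changes were 1.39 for an Lhcb1 gene, LOC_Os01g52240, 1.23 for Lhcb6, 1.18 for Lhcb4 and 1.12 for Lhca1 (BH-adjusted p = 0.00021, 0.00023, 0.00031 and 0.00022). These genes also mark green tissue: their summed level was 16347 to 17038 FPKM in 708OE_PEG and 8256 to 10410 FPKM in NIP_PEG. Of 5 root markers, Lsi1 alone was tested, at 2.50 ± 0.140 FPKM in 708OE_PEG and 2.83 ± 0.440 FPKM in NIP_PEG (SD, n = 3 each; BH-adjusted p = 0.35). Lsi2, OsNRT2.1 and OsAMT1;2 were listed at 0 in every library, and RCc3 reached at most 0.119 FPKM, in NIP_PEG. The summed level of the root list was 2.39 to 2.66 FPKM in 708OE_PEG and 2.39 to 3.31 FPKM in NIP_PEG. The part that green tissue content plays in the rise of GLK1 or the falls of NYC1, NOL, SGR, NYC3 and PAO was not tested.

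**Figure D4:**
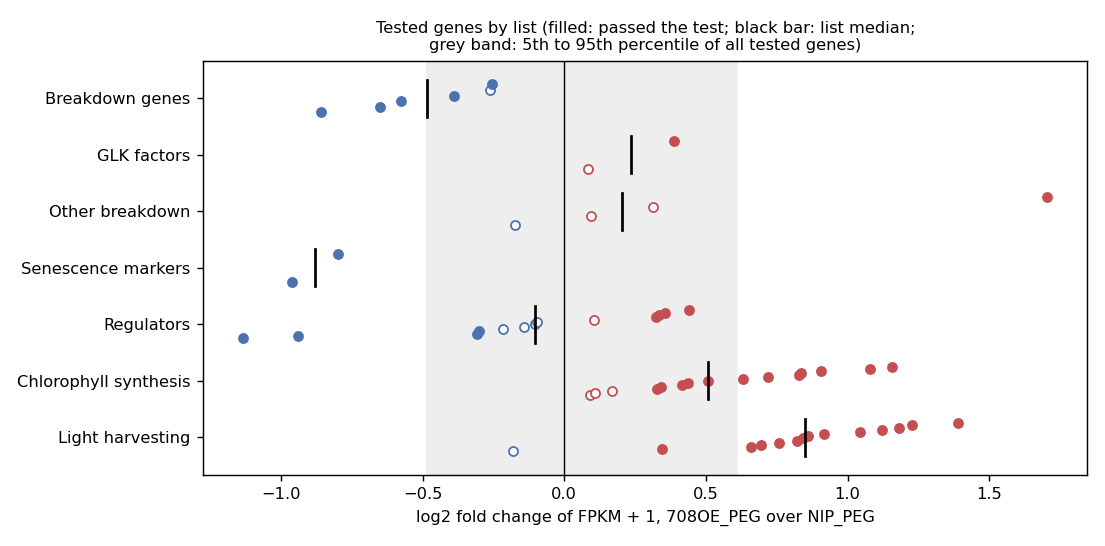
Log2 fold change of FPKM + 1 for 708OE_PEG over NIP_PEG (horizontal axis) for every tested gene of the lists, 1 point per gene. Filled points passed the test, and black bars are medians: -0.48 for the breakdown genes, 0.24 for the GLK factors, 0.20 for other breakdown genes, -0.88 for senescence markers, -0.10 for regulators, 0.51 for chlorophyll synthesis and 0.85 for light harvesting.

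The library-by-library pattern of each member was set against the other 56 tested genes of all the lists, by Euclidean distance of centred log2(FPKM + 1) over 6 libraries. This distance counts both the genotype difference and the spread among replicates. NYC1 was nearest to the senescence marker Osl85 (distance 0.17) and NYC3 to the marker Osh36 (0.28). SGR was nearest to PAO (0.28). PAO was nearest to LOC_Os03g20780, listed as OsEIL1 (0.22), a name that is uncertain because its length differs from that of the gene so named in RefSeq. NOL was nearest to the photoreceptor gene PHYB (0.16), and RCCR1 to Lsi1 (0.25). GLK1 was nearest to OsPIL16 (0.14) and GLK2 to ALAD (0.13), a synthesis gene that did not pass the test.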

How the data were processed

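The deposited table holds FPKM per gene and library, per the file headers, beside log2 fold changes and p-values computed by the authors. The submitters' processing notes name HISAT2, featureCounts and DESeq2 among others, without versions or roles. The sources used here give no build, annotation or strand setting. In the authors' deposited table the log2 fold changes of the members ran from -0.87 (NYC1) to 0.40 (GLK1).

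FPKM values could be fitted as whole multiples of the value of 1 read for all 31263 genes above 0 (tolerance 0.02 of a read). A gene above 0 in only 1 library fits in any case. The fit gave reads, library sizes and gene lengths, and the first fit gave a whole length for 97.5% of these genes. Summed reads were 0.972 to 0.998 times the implied library sizes in 708OE_PEG and 1.05 to 1.07 times in NIP_PEG, so this ratio differed by genotype. With library sizes set to the tabulated reads, the log2 fold change of NYC1 was -0.75, against -0.86 with the deposited scaling. That of GLK1 was 0.49, against 0.39. Dividing by gene length scales a gene equally in every library, but fold changes followed a trend on length, and an alternative removes it. Of 8 members 6 matched a RefSeq name (assembly ASM3414082v1), all on the same chromosome and 5 within 5% of its gene span. NOL was 1.48 times as long. PAO and NYC3 could not be compared, and their names rest on the locus numbers, as do those of OsNAP, OsABI5/bZIP10, Osh36, Osl85, SGRL, HCAR and chlorophyllase. Over all lists, 21 of 64 names could be compared.

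Genes were tested where 3 or more of the 6 libraries reached an FPKM of 1. All 8 members passed, in every library. Moderated variances followed expression and were shared by both genotypes (limma 3.58.1, R 4.3.3). The pseudocount of 1 understates the folds of low genes. Lanes of a wild-type replicate were 1 library, and the digit in the wild-type column names is not explained. Named genes were the members, all other breakdown and senescence genes, and in the remaining lists up to 4 called genes with the largest folds. CGA1, ONAC106, OsEIL1, PHYB and the failing or untested genes were named after their values were seen. Members and lists were chosen with earlier results of these data known. Alternatives covered pseudocounts, filters, scaling, gene length, left-out libraries and a replicate block.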

Additional observations from a re-analysis of the deposited data

How the results depend on the processing

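The directions of all 8 members held under 17 alternatives each. NYC1, SGR, NYC3, PAO and GLK1 kept their calls throughout, and GLK2 never passed (adjusted p 0.0812 to 0.922). NOL was not called with library sizes set to the tabulated reads (log2 fold change -0.16), with the length trend removed (-0.12) or with 708OE_PEG replicates 1 and 2 as 1 sample (-0.26). RCCR1 was called with the length trend removed (-0.31) and with voom on whole reads (-0.27), an alternative chosen after the data were seen. With 1 library left out, NOL ranged between -0.29 and -0.22 and RCCR1 between -0.37 and -0.19. The difference between genotypes in the log2 ratio of SGR to NYC3 then ranged between -0.0584 and 0.19. Leaving out 1 library gave 3378 to 7148 called genes, and averaging 708OE_PEG replicates 1 and 2 gave 4226. Leave-one-out counts were 2 to 5 regulators higher, 1 to 2 other breakdown genes higher, 0 to 1 of them lower and 0 to 1 light-harvesting genes lower. In the same fits 10 to 12 chlorophyll synthesis genes and 12 to 13 light-harvesting genes were higher. Of the other breakdown genes 2 were higher after quantile normalization, with tabulated-read scaling, with the length trend removed and with voom. Regulators called lower numbered 2 with tabulated-read scaling, and 1 was higher with a mean FPKM of at least 5. Under tabulated-read scaling OsMYB102 (0.0023) and OsDOS (0.0125), neither of them called, changed sign. Correlations of deviations between same-numbered replicates were -0.045 to -0.002, so no shared replicate effect was seen. They cannot show whether such replicates were handled together, which the labels do not state. With a replicate block 5619 genes were called and no member changed its call. A quasi-likelihood count test was not run, as the deposited values are FPKM, and voom on the reads recovered from them was run instead. The cause of these changes was not tested. Every member had at least 695 reads in every library, but the part of counting error in their spread was not tested.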
